A study of Mus musculus with 12 samples.

Results

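The uroplakin genes Upk1a, Upk1b, Upk2, Upk3a and Upk3b and the gene of prostate stem cell antigen, Psca, were followed through whole-kidney RNA of wild type and Alport mice. The 6 genes were taken by symbol from the annotation of the array and are 6 of 19505 named genes. No measured value enters that rule, but earlier results of these data were known when the genes were proposed. Each was read by 1 probe set of the 22206 on the array: TC0700002770.mm.2 for Upk1a, TC1600001616.mm.2 for Upk1b, TC0900002167.mm.2 for Upk2, TC1500000800.mm.2 for Upk3a, TC0500001595.mm.2 for Upk3b and TC1500000542.mm.2 for Psca. Transcripts had been measured on Affymetrix Clariom S arrays in 12 samples, 3 in each of 4 groups. Wild type mice had received vehicle, and Alport mice had received vehicle, losartan or metformin. The Alport mice of all 3 groups were hemizygous for a nonsense allele of Col4a5, which the labels write as G5X. Col4a5 encodes a collagen chain of the filtration barrier in the glomerulus, and its loss gives a progressive kidney disease. Losartan, an angiotensin II receptor blocker, was given in drinking water at 125 and later 250 µg/mL, and metformin, a biguanide used in diabetes, at 2.5 and later 5 mg/mL. The stated age was 16 weeks in every group. The labels let the later dose run from week 12 until week 20, which is past that age, and describe losartan as co-administered. The sample titles, which name a single drug, were used for the groups. The labels do not say whether the 3 samples of a group came from separate mice, so p-values reflect the spread among these arrays alone, and part of it may be technical.

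Uroplakins cover the luminal face of the urothelium, the lining of the renal pelvis, ureter and bladder, where they pack into rigid plaques that keep urine from leaking back. Upk1a and Upk1b are tetraspanins, and each pairs with a single-pass partner: Upk1a with Upk2, and Upk1b with Upk3a or Upk3b. Psca is a small protein of the Ly6 family that is held on the cell surface by a lipid anchor and is known from urothelium, prostate and stomach. In the kidney, urothelium lines only the pelvis. The level of these genes in a whole-kidney sample therefore also depends on how much of the pelvis the sample holds. Upk1b and Upk3b are also known from mesothelium, the thin covering of abdominal organs.

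Promoter sequences are shown for the members that RefSeq's promoter table (GRCm38.p6) holds, Upk1a, Upk3a and Upk3b, together with Krt5, the basal urothelial keratin whose values followed Upk1a most closely. Entries were matched for 3 of the 6 members, and Upk1b, Upk2 and Psca were not matched. Each line gives the 250 bases before the transcription start, 5′ to 3′ on the strand of the gene, and capitals mark the motifs found.
Upk1a (chr7:30612735-30612984, minus strand): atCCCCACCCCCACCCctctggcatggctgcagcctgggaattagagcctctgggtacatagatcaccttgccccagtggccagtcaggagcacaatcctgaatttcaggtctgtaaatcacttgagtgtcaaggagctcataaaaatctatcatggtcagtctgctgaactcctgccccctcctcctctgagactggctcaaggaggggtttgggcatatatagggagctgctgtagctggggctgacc
Upk3a (chr15:85016891-85017140, plus strand): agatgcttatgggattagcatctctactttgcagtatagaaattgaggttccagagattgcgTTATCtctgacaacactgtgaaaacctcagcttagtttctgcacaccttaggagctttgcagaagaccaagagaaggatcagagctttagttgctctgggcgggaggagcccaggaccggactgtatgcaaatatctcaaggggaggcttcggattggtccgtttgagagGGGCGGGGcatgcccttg
Upk3b (chr5:136038246-136038495, plus strand): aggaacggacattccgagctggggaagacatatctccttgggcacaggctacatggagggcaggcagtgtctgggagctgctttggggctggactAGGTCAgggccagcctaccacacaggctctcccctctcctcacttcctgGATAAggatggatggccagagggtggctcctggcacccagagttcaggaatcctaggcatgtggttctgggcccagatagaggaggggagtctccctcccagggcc
Krt5 (chr15:101712906-101713155, minus strand): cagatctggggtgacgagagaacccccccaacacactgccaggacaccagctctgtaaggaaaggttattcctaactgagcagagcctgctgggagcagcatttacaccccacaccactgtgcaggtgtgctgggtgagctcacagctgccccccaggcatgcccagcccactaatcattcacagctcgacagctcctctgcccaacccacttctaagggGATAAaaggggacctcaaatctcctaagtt
The 5 motifs searched on both strands stand for families of factors known in urothelial differentiation. They were GATAA for GATA factors, AGGTCA for nuclear receptors, AACCNGTT for grainyhead factors, TGTTTNC for forkhead factors and CCNCNCCC for Krüppel-like factors. GATAA was found 106 bases before the start of Upk3b, 30 bases before that of Krt5 and, as its reverse complement TTATC, 188 bases before that of Upk3a. AGGTCA was found 155 bases before the start of Upk3b. CCNCNCCC was found 3 times in overlapping places in Upk1a, the first 248 bases before the start, and as GGGCGGGG 18 bases before the start of Upk3a. AACCNGTT and TGTTTNC were not found in these 4 windows. No match overlapped a match to another motif. Among 32851 promoter windows of the same length, GATAA was present in 22.6%, AGGTCA in 14%, AACCNGTT in 1.79%, TGTTTNC in 17.8% and CCNCNCCC in 45.9%. A match describes the letters only.

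The values are log2 signals, so a difference of 1 is a doubling, and the number of arrays limits their precision. The mutated gene checked the labels: Col4a5 was 0.92 ± 0.23 lower on the log2 scale in Alport vehicle than in wild type (standard error, adjusted p = 0.0116). Upk2 lay below the lower quartile of its own sample's probe sets in 10 of the 12 samples, and Upk3a lay below its sample's median in all 12. Upk1a and Psca lay above the median in all 12. Changes of such dim probe sets can be understated on arrays. Tests are those of a linear model over all probe sets (limma), with p adjusted by Benjamini-Hochberg over all 22206, and only a gene with an adjusted p under 0.05 is said to have risen or fallen.

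Among the samples, 1 of the Alport vehicle group and 1 of the losartan group stood apart in these genes. Alport vehicle sample 3 held the highest value of its group for all 6 genes, by more than 1 log2 unit over both other samples for 4 of them. Over all probe sets, that sample was the highest of its group for 35.3% and more than 1 log2 unit above both others for 126, or 0.567%. In the remaining 11 samples that number ran from 13 to 70. Losartan sample 2 was also the highest of its group for all 6 genes, by more than 0.5 log2 units for 3 and more than 1 for 0. Over all probe sets, it was the highest for 33.5% and more than 0.5 log2 units above both others for 630 of 22206. The comparisons that include Alport vehicle and the main correlations of the 6 genes are given below with and without these samples.

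**Figure D1:**
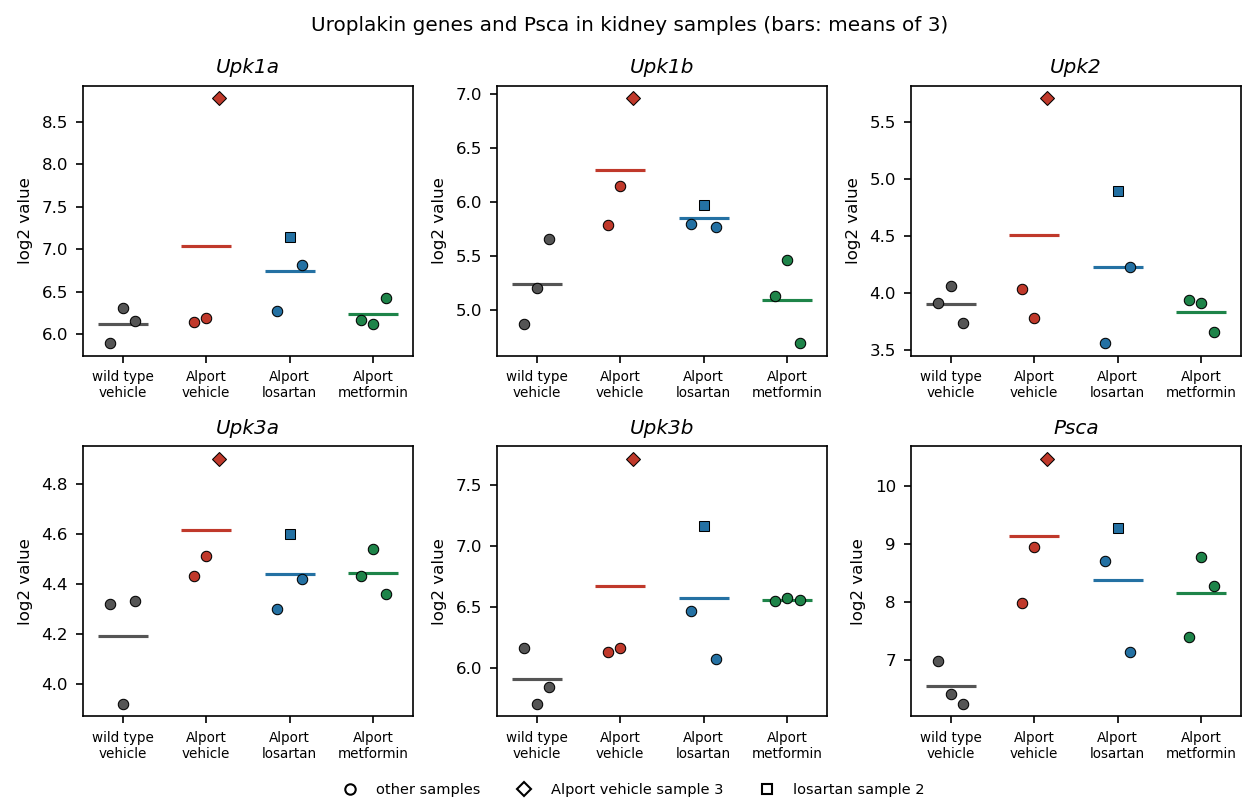
Log2 signal of each gene (vertical axes, scaled separately) in the 12 kidney samples, by group (horizontal axes), where points are samples and bars are means of 3. Alport vehicle sample 3 (diamond) and losartan sample 2 (square) are the highest of their groups in all 6 panels.

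The pelvis content of each sample was gauged with 11 urothelial genes that are not uroplakins, among them the keratins Krt5, Krt13, Krt14 and Krt15 and the basal factor Trp63. Their mean log2 value was 5.61 in Alport vehicle sample 3 and 5.11 in losartan sample 2, and ran from 4.84 to 5.05 in the other 10 samples. Alport vehicle sample 3 was the highest of its group for 9 of the 11 genes, and losartan sample 2 for 7. Wild type sample 3, at a mean of 5.05, was also the highest of its group for 7 of the 11, and for 2 of the 6 members. Its median lead over the mean of its group mates in the 11 genes was 0.365, against 0.255 for losartan sample 2. The count of 7 is thus not particular to losartan sample 2. Krt5 carried the widest gap. It read 4.23, 4.69 and 4.51 in wild type, 4.51, 4.90 and 7.56 in Alport vehicle, 4.70, 5.46 and 4.79 in the losartan group and 4.60, 4.70 and 4.69 in the metformin group. Krt13 stayed within 3.21 to 3.76 in all 12 samples, below the lower quartile of each. Between groups the mean of the 11 genes differed by 0.27 for Alport vehicle minus wild type, with an exact two-sided permutation p of 0.3. The other 5 comparisons of that mean gave exact permutation p-values from 0.2 to 1, the 6 adjusted p-values ran from 0.90 to 1, and 0.1 is the smallest p that 3 samples against 3 allow.

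Markers of other tissues were read in the same 2 samples. In Alport vehicle sample 3, 3 of 6 genes of perirenal fat were the highest of the group, all 3 by more than 1 log2 unit, and the fat list averaged 7.74 there against 6.78 and 6.90 in the other Alport vehicle samples. The hormone gene Adipoq, made by fat cells, was 2.18 above both of them. In losartan sample 2, 2 of the 6 fat genes were the highest of the group, and Adipoq was 1.05 below the higher of the other 2 samples. For Slc14a2, the urea transporter of the inner medullary collecting duct, which was picked after its values were seen, samples other than these 2 ran from 5.31 to 6.55. It read 7.70 in Alport vehicle sample 3 and 8.03 in losartan sample 2. The collecting duct list held 5 of 10 genes highest in Alport vehicle sample 3 and 7 of 10 in losartan sample 2. For the adrenal list these counts were 4 of 7 and 0 of 7, for mesothelium 5 of 9 and 3 of 9, and for smooth muscle of the renal pelvis and vessels 6 of 10 and 3 of 10. The part of pelvis, fat, medulla or other attached tissue in the values of the 6 genes was not tested beyond the fits given below. In whole-kidney RNA, more cells of a type and more RNA per cell cannot be told apart.

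**Figure D2:**
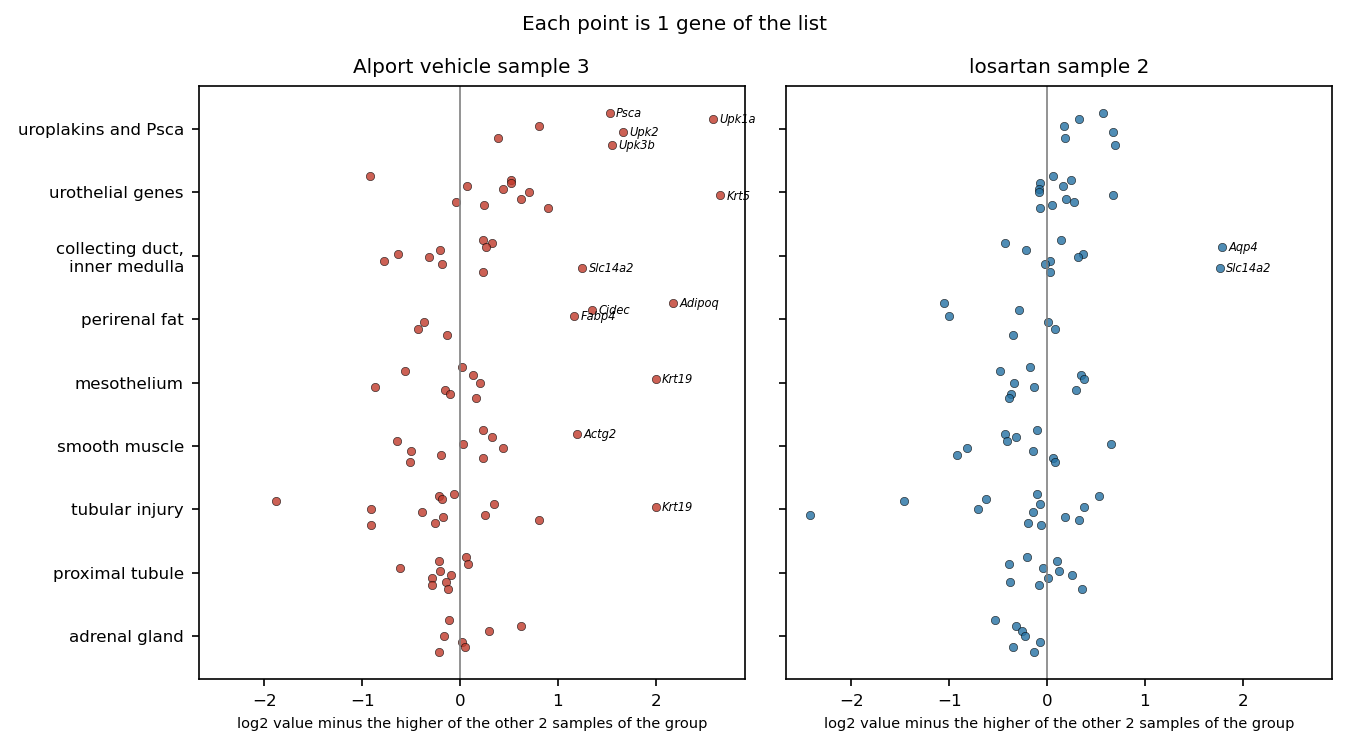
Gap in log2 units (horizontal axes) between each gene's value in Alport vehicle sample 3 (left) or losartan sample 2 (right) and the higher of the other 2 samples of its group, by gene list (vertical axis), where points right of 0 are genes highest in that sample. On the left Krt5, Upk1a and Adipoq stand 2.66, 2.59 and 2.18 above both other samples, and on the right Aqp4 and Slc14a2 stand 1.79 and 1.77 above.

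The tetraspanin Upk1a read 5.89, 6.31 and 6.15 in wild type, 6.14, 6.19 and 8.78 in Alport vehicle, 6.27, 7.14 and 6.81 in the losartan group and 6.17, 6.12 and 6.43 in the metformin group. Alport vehicle sample 3 was high, and the other 2 samples of that group lay within the wild type range. Group means ran from 7.04 ± 1.51 (SD, n = 3) with Alport vehicle through 6.74 ± 0.44 with losartan and 6.24 ± 0.17 with metformin to 6.12 ± 0.21 in wild type. No neighbours in this order differed beyond the larger of their SDs except losartan and metformin, whose ranges still overlapped.

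Upk1b, the other tetraspanin, separated whole groups. It read 4.87, 5.20 and 5.66 in wild type, 5.79, 6.15 and 6.96 in Alport vehicle, 5.80, 5.97 and 5.77 in the losartan group and 5.13, 5.46 and 4.69 in the metformin group. All 3 Alport vehicle samples and all 3 losartan samples lay above all wild type and all metformin samples. The means were 6.30 ± 0.60 with Alport vehicle, 5.85 ± 0.11 with losartan, 5.24 ± 0.40 in wild type and 5.09 ± 0.39 with metformin (SD, n = 3). The first pair and the last pair in that order differed by less than their spread.

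Upk2, the partner of Upk1a, read 3.91, 4.06 and 3.74 in wild type, 4.04, 3.78 and 5.71 in Alport vehicle, 3.56, 4.90 and 4.23 in the losartan group and 3.94, 3.91 and 3.66 in the metformin group. As with Upk1a, Alport vehicle sample 3 and losartan sample 2 were high and the groups overlapped. In the other 10 samples Upk2 spanned 3.56 to 4.23. Its means, 4.51 ± 1.05 with Alport vehicle, 4.23 ± 0.67 with losartan, 3.90 ± 0.16 in wild type and 3.84 ± 0.15 with metformin (SD, n = 3), did not differ between neighbours beyond their spread.

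Upk3a, a partner of Upk1b, spanned the narrowest range of the 6 genes, from 3.92 to 4.90. It read 4.32, 3.92 and 4.33 in wild type, 4.43, 4.51 and 4.90 in Alport vehicle, 4.30, 4.60 and 4.42 in the losartan group and 4.43, 4.54 and 4.36 in the metformin group. All Alport vehicle and all metformin samples lay above all wild type samples, by as little as 0.03 for metformin. The means were 4.61 ± 0.25 with Alport vehicle, 4.44 ± 0.09 with metformin, 4.44 ± 0.15 with losartan and 4.19 ± 0.23 in wild type (SD, n = 3). Losartan and wild type, neighbours in that order, differed by 0.25, just over the larger of their SDs, and overlapped.

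Upk3b, the other partner of Upk1b, read 6.17, 5.71 and 5.85 in wild type, 6.13, 6.17 and 7.72 in Alport vehicle, 6.47, 7.17 and 6.08 in the losartan group and 6.55, 6.58 and 6.56 in the metformin group. The metformin samples agreed within 0.03 and lay above all wild type samples, while the Alport vehicle and losartan samples overlapped with wild type. The means were 6.67 ± 0.91 with Alport vehicle, 6.57 ± 0.55 with losartan, 6.56 ± 0.02 with metformin and 5.91 ± 0.24 in wild type (SD, n = 3). Of the neighbours in that order, metformin and wild type differed beyond their SDs and the others did not.

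Of the 6 genes, Psca showed the widest gap between Alport and wild type kidneys. It read 6.99, 6.42 and 6.25 in wild type, 7.98, 8.94 and 10.47 in Alport vehicle, 8.71, 9.28 and 7.14 in the losartan group and 7.39, 8.78 and 8.28 in the metformin group. All 9 Alport samples lay above all 3 wild type samples. The means were 9.13 ± 1.26 with Alport vehicle, 8.38 ± 1.11 with losartan, 8.15 ± 0.70 with metformin and 6.55 ± 0.39 in wild type (SD, n = 3). The 3 Alport groups, neighbours in that order, differed from each other by less than their spread.

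The comparison of Alport vehicle with wild type asks what the mutation did without a drug. Psca rose 5.97-fold, by 2.58 ± 0.55 on the log2 scale (standard error, adjusted p = 0.00392), and Upk1b rose 2.08-fold, by 1.06 ± 0.28 (adjusted p = 0.0140). These are 2 of the 6 genes, where 16.1% of all probe sets were called and 8.43% were called as higher. In 3 of the 6 genes, Upk1b, Upk3a and Psca, the groups did not overlap and Alport vehicle was higher, against 14.2% of all probe sets. Upk1a was 0.92 ± 0.48 higher (adjusted p = 0.233), Upk2 0.61 ± 0.39 (adjusted p = 0.351), Upk3a 0.42 ± 0.18 (adjusted p = 0.130) and Upk3b 0.76 ± 0.34 (adjusted p = 0.158). The median change of the 6 genes was 0.84, and that of all probe sets was -0.03.

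The size of these differences depended on Alport vehicle sample 3. Without it, Psca was still called, at 1.91 (adjusted p = 0.0210). Upk1b was 0.73 higher and no longer called (adjusted p = 0.0749), and it was also lost without wild type sample 1, at 0.87 (adjusted p = 0.0762). Upk1a was then 0.05 higher, Upk2 0.0067 higher, Upk3a 0.28 higher and Upk3b 0.24 higher. With the mean of the 11 pelvis genes as a covariate, Psca was 1.82 higher (adjusted p = 0.0328), Upk1b 0.65 higher (adjusted p = 0.108), and Upk1a and Upk2 were 0.06 and 0.10 lower. Of those 11 genes, 1 rose (Foxa1) and 1 fell (Snx31) in this comparison, beside 8.43% and 7.71% of all probe sets. The covariate can therefore also carry changes between the groups. It was 5.61 in Alport vehicle sample 3 and 5.11 or less in the other samples. This fit is thus not a check separate from leaving that sample out. Over 15 alternative settings, Psca was called in 15, with changes from 1.82 to 3.15 and adjusted p-values from 0.00161 to 0.0388. Upk1b was called in 11 of 15, with adjusted p-values from 0.00662 to 0.108.

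**Figure D3:**
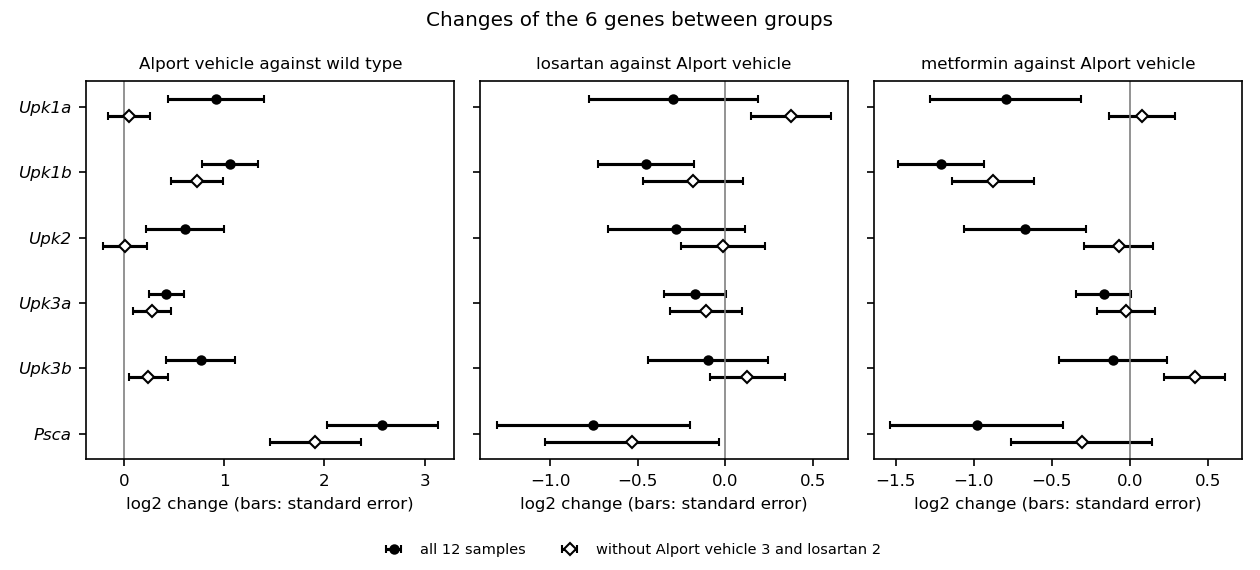
Log2 change of each gene (horizontal axes, with standard errors as bars) in 3 comparisons, with all 12 samples (filled circles) and without Alport vehicle sample 3 and losartan sample 2 (open diamonds). In Alport vehicle against wild type, Psca and Upk1b keep most of their change while Upk1a moves from 0.92 to 0.05. Without the 2 samples Psca is still called in that comparison and Upk1b is not.

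The Alport vehicle samples, among them the high sample 3, are the control of both drug comparisons. Losartan against Alport vehicle asks what the receptor blocker changed in Alport kidneys. With limma, 0 of the 6 genes were called, where 7.9% of all probe sets were called, and 0 had an unadjusted p under 0.05, where 20.4% of all probe sets did. Psca was 0.75 ± 0.55 lower, with a 95% confidence interval from -1.93 to 0.42 (adjusted p = 0.505). Upk1b was 0.45 ± 0.28 lower, with an interval from -1.04 to 0.13 (adjusted p = 0.392). Upk1a was 0.30 lower, Upk2 0.28 lower, Upk3a 0.17 lower and Upk3b 0.10 lower, with adjusted p-values from 0.665 to 0.916. Without Alport vehicle sample 3, Psca was 0.08 lower, Upk1b 0.12 lower and Upk3a 0.03 lower with losartan, and Upk1a, Upk2 and Upk3b were 0.575, 0.32 and 0.42 higher. Without both samples that stood apart, Psca was 0.535 lower, Upk1b 0.185 lower and Upk3a 0.11 lower, Upk2 differed by -0.015, and Upk1a and Upk3b were 0.375 and 0.125 higher.

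In metformin against Alport vehicle, Upk1b fell 2.31-fold, by 1.21 ± 0.28 on the log2 scale (adjusted p = 0.0200), and its groups did not overlap. It was 1 of the 6 genes called, where 4.94% of all probe sets were called, 2.27% were called as lower and 9.88% had metformin below Alport vehicle without overlap. The call was lost without Alport vehicle sample 3, at -0.88 (adjusted p = 0.0721), and without metformin sample 3, at -1.005 (adjusted p = 0.104). It held in 10 of 15 alternative settings, which gave adjusted p-values up to 0.104. Psca was 0.98 ± 0.55 lower (adjusted p = 0.377), Upk1a 0.80 ± 0.48 lower (adjusted p = 0.416) and Upk2 0.67 ± 0.39 lower (adjusted p = 0.393). Upk3a was 0.17 lower and Upk3b 0.11 lower, with adjusted p-values of 0.693 and 0.920. Without both samples that stood apart, Psca was 0.31 lower, Upk2 0.073 lower and Upk3a 0.027 lower with metformin, while Upk1a was 0.075 higher and Upk3b 0.41 higher.

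Metformin and losartan were also compared directly. With limma, 0 of the 6 genes were called, where 0.045% of all probe sets were called. Upk1b was the 1 gene with an unadjusted p under 0.05, where 8.37% of all probe sets had one. Upk1b was 0.75 ± 0.28 lower with metformin (adjusted p = 0.471) and its groups did not overlap, as was the case with metformin lower for 7.74% of all probe sets. Psca differed by -0.23 ± 0.55, with a 95% confidence interval from -1.40 to 0.95. Upk3a and Upk3b differed by 0.00 ± 0.18 and -0.01 ± 0.34.

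The treated Alport groups were set against wild type, and both comparisons share the wild type samples with the first. With losartan, limma called 0 of the 6 genes and 0.549% of all probe sets, and 2 of the 6 had an unadjusted p under 0.05, against 10.7% of all probe sets. Psca was 1.82 ± 0.55 higher (adjusted p = 0.194) and Upk1b 0.60 ± 0.28 higher (adjusted p = 0.439). For both genes all losartan samples lay above all wild type samples, as for 8.4% of all probe sets. With metformin, limma called 0 of the 6 genes and 4.18% of all probe sets, and 1 of the 6 had an unadjusted p under 0.05, against 18% of all probe sets. Psca was 1.60 ± 0.55 higher (adjusted p = 0.126), Upk3b 0.65 ± 0.34 higher (adjusted p = 0.340) and Upk3a 0.25 ± 0.18 higher (adjusted p = 0.504). For these 3 genes all metformin samples lay above all wild type samples, as for 10.6% of all probe sets. Upk1b was 0.15 ± 0.28 lower with metformin. Without both samples that stood apart, Psca was called in metformin against wild type (adjusted p = 0.0424). Neither sample is in that comparison, so the change stayed at 1.60 and only the spread shared by the groups and the adjustment moved. Both samples had been singled out for high values of these genes.

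The 6 genes varied together to unequal degrees over the 12 samples, and each pair did so less without the 2 high ones. Pearson's r, given as a description over 12 samples that include the 2 high ones, was 0.93 between the partners Upk1a and Upk2 and 0.86 between Upk3b and Psca. Upk1b followed its partners Upk3a and Upk3b less closely, with r of 0.68 and 0.53. With each group's mean removed, r was 0.92 for Upk1a and Upk2 and 0.51 for Upk1b and Psca, the lowest of all pairs. Without the 2 high samples, r over the remaining 10 was 0.327 for Upk1a and Upk2, 0.716 for Upk3b and Psca, 0.323 for Upk1b and Upk3a and -0.237 for Upk1b and Upk3b. Over all pairs it then ran from -0.424 (Upk2 and Psca) to 0.716. With group means also removed, it ran from -0.876 (Upk1a and Upk3b) to 0.672 (Upk3b and Psca). The points share arrays, and Alport vehicle sample 3 was the highest of all 12 for each of the 6 genes.

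Among all named genes, the 1 most like each member was found by the same coefficient. For Upk1a it was Krt5, at 0.974, and for Upk2 it was Ctse, which encodes the protease cathepsin E, at 0.967. Without the 2 high samples these coefficients were 0.627 and 0.662 over 10 samples. Ctse read 7.10 in Alport vehicle sample 3 and 6.31 in losartan sample 2, and from 4.57 to 5.46 in the other 10. For Psca it was Slc14a1, at 0.954, a urea transporter of red cells and vasa recta that is also known from urothelium, and it was 0.91 without the 2 high samples. Slc14a1 read 6.78, 6.67 and 6.19 in wild type and 7.06 to 9.08 in the 9 Alport samples, so that, as with Psca, the wild type samples were the lowest 3. The mucin gene Muc20 (0.948) and Igfbp2, which encodes a binding protein of insulin-like growth factors (0.919), were also among the 5 genes most like Psca, and each rose in Alport vehicle, by 1.88 ± 0.38 (adjusted p = 0.00260) and 2.82 ± 0.62 (adjusted p = 0.00453). Hif1a (0.937), also of the 5, rose by 0.78 ± 0.19 (adjusted p = 0.00815). Fundc1 (0.950), the other gene of the 5, was not called, at 0.38 ± 0.16 (adjusted p = 0.122). All 5 were picked for following Psca, which itself rose, over the same 12 samples. That choice favours genes that rose, so their rises are no separate result. Of all probe sets, 8.43% were called as higher in Alport vehicle against wild type. The gene most like Upk1b was Il1a, a cytokine gene, at 0.919, that most like Upk3a was Lair1, an inhibitory receptor of leukocytes, at 0.924, and that most like Upk3b was Tmbim1, at 0.917. Without the 2 high samples these 3 coefficients were 0.845, 0.914 and 0.824. After removal of the group means, the most alike genes over all 12 samples were Krt5 for Upk1a (0.980), Epb41l4b for Upk1b (0.974), B3gnt7 for Upk2 (0.969), Spsb3 for Upk3a (0.944), Foxa1 for Upk3b (0.971) and Slc35e2 for Psca (0.945). Foxa1 lay below its sample's lower quartile in 11 of the 12 samples.

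**Figure D4:**
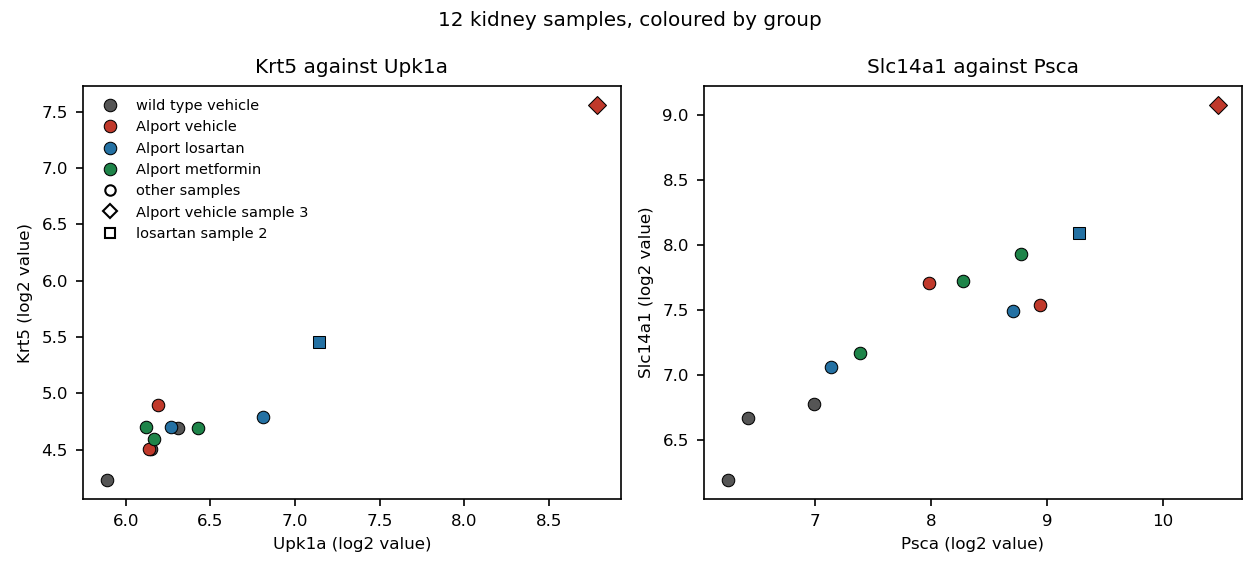
Log2 values of Krt5 against Upk1a (left) and of Slc14a1 against Psca (right) in the 12 kidney samples, coloured by group. On the left Alport vehicle sample 3, at 8.78 for Upk1a and 7.56 for Krt5, lies far from the others, and on the right the 3 wild type samples lie lowest for both genes.

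Other genes of the urothelium were measured for 21 of a list of 23. In Alport vehicle against wild type, 6 of the 21 rose and 2 fell, with a median change of 0.48, beside 8.43% and 7.71% of all probe sets and a median of -0.03. The keratins Krt7, Krt19 and Krt20 rose by 0.91, 1.95 and 2.71, the tight junction gene Cldn4 by 2.31, and the transcription factor genes Elf3 and Foxa1 by 1.17 and 0.66. Krt7, Krt19 and Cldn4 are also known from collecting duct or injured tubule, and Krt19 and Krt20 were also on the list of tubular injury genes. The sorting nexin gene Snx31, which encodes a partner of uroplakins on their vesicles, fell by 1.13, and Ovol1 fell by 1.09. Krt20, the keratin of umbrella cells, read 6.98, 5.86 and 6.07 with Alport vehicle and 3.17, 3.78 and 3.84 in wild type, and so was not highest in sample 3, unlike the 6 members. Without the 2 samples that stood apart, 5 of the 21 rose and 2 fell, where 6.24% and 5.64% of all probe sets did. With losartan Krt20, Grhl3 and Foxa1 fell against Alport vehicle, by 2.18, 0.78 and 0.77, where 7.9% of all probe sets were called. With metformin Foxa1 fell by 0.84 and Snx31 rose by 1.13, where 4.94% of all probe sets were called. Without the 2 samples that stood apart, 0 of the 21 rose and 0 fell in either drug comparison. Of all probe sets, 0.838% then rose and 1.07% fell with losartan, and 1.6% rose and 1.06% fell with metformin.

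Of 11 genes of uroplakin trafficking, 3 rose and 2 fell in Alport vehicle against wild type, beside 8.43% and 7.71% of all probe sets. Sytl2 and Rab27b, an effector and a GTPase of vesicle docking, rose by 2.72 and 0.82, the raft protein gene Mal rose by 0.48, and the motor gene Myo5b fell by 1.12 besides Snx31. Without the 2 samples that stood apart, 1 of the 11 rose and 2 fell, where 6.24% and 5.64% of all probe sets did. Many of these trafficking genes also serve kidney tubules. Mesothelial genes were counted because Upk1b and Upk3b are known there. Of 9 measured, 2 rose and 1 fell: Aldh1a2, which makes retinoic acid, rose by 4.39, Krt19 rose by 1.95 and Gpm6a fell by 1.07. The mesothelial list averaged 5.68 to 5.83 in the wild type samples and 6.33 to 6.65 with Alport vehicle. Without Aldh1a2 and Krt19, the 2 that rose and neither particular to mesothelium, the other 7 genes averaged 5.85 to 5.99 and 5.91 to 6.00. The 2 were left out after their values were seen, so that mean cannot show whether mesothelium changed. Tubular injury genes rose for 12 of 13 in the same comparison, with a median of 2.71, and proximal tubule genes fell for 9 of 10, with a median of -0.97. The part of these tissue changes in the rises of Psca and Upk1b was not tested.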

How the data were processed

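Biotinylated DNA made from whole-kidney RNA was hybridised to Clariom S arrays, per the labels' protocols. For each probe set the deposited table gives 1 log2 value per sample, from 2.3 to 19.88, and the log2 scale was read from the values. The authors used Transcriptome Analysis Console 4.0, per the submitters' processing notes. How background, scaling and summarisation were handled is not given in the sources used here. Such steps can compress the changes of dim probe sets. Of 22206 probe sets, 19572 had 1 symbol in the platform annotation, 0 had several and 2634 stayed unnamed.

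With limma 3.58.1 in R 4.3.3, lmFit and eBayes fitted a mean per group to all 12 samples, with two-sided tests, 8 residual degrees of freedom and Benjamini-Hochberg adjustment over all probe sets of each comparison. The procedure was tested on simulated data. The 6 genes and all lists were chosen with earlier results of these data known. Named by rule were the 6 genes, Col4a5, up to 4 genes of each list with the smallest p in Alport vehicle against wild type besides its highest-mean gene, and the 5 genes most like each member. Other genes were chosen after their values were seen, among them Slc14a2 and Adipoq for their gaps in the 2 samples and Krt13, Krt20, Ovol1, Mal and Tspan33 to complete counts. Krt6a and Gata3, among other list genes, were not matched and are not analysed here.

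Each sample was alternatively centred on its median or quantile normalized. Further alternatives were a filter on the dimmest 33.3% of probe sets, a trended robust prior, array weights, only the 2 groups compared, the mean of the 11 pelvis genes as a covariate, a replicate block and leaving out each sample. Leaving out Alport vehicle sample 3 and losartan sample 2 together, in the fits and the correlations, and the mesothelial mean without 2 genes were chosen after seeing the data. Replicate numbers are in the labels, but deviations of same-numbered samples correlated only between -0.14 and 0.08, so samples were not paired.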

Additional observations from a re-analysis of the deposited data

How the results depend on the processing

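Of the changes of single members under the alternatives, 481 kept their direction and their side of the threshold, 36 turned direction, 9 were no longer called and 2 became called. The count that rose in Alport vehicle against wild type was 2, and 1 with the pelvis covariate or without both samples that stood apart (1 to 2 with samples left out in turn). The count that fell with metformin against Alport vehicle was 1, and 0 with only the 2 groups, the covariate or without both samples (0 to 1 left out in turn). The count that rose in metformin against wild type was 0, and 1 (Psca) with only the 2 groups or without both samples. Neither of these samples is in that comparison.

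None of the changes that turned direction was called. With the covariate, Alport vehicle against wild type gave -0.0615 for Upk1a and -0.104 for Upk2, losartan against Alport vehicle 0.533 for Upk1a, 0.321 for Upk2 and 0.428 for Upk3b, metformin against Alport vehicle 0.075 for Upk1a, 0.0063 for Upk3a and 0.445 for Upk3b, and metformin against losartan 0.0168 for Upk3b. Without both samples, losartan against Alport vehicle gave 0.375 for Upk1a and 0.125 for Upk3b, metformin against Alport vehicle 0.075 and 0.413 for the same genes, metformin against losartan 0.288 for Upk3b and 0.225 for Psca, and losartan against wild type -0.0083 for Upk2. Upk3a in metformin against losartan was -0.0167 after centring and -0.0014 with array weights.

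With each sample left out in turn, losartan against Alport vehicle ran from -0.745 to 0.575 for Upk1a, from -0.645 to 0.32 for Upk2 and from -0.398 to 0.423 for Upk3b, and metformin against Alport vehicle from -1.245 to 0.075 for Upk1a and from -0.382 to 0.413 for Upk3b. Metformin against losartan ran from -0.0667 to 0.0833 for Upk3a, from -0.257 to 0.288 for Upk3b and from -0.845 to 0.225 for Psca. Losartan against wild type ran from -0.0083 to 0.662 for Upk2, and metformin against wild type from -0.337 to 0.0583 for Upk1b and from -0.148 to 0.0217 for Upk2. The causes of the other changes were not tested.

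The filter on dim probe sets left 4 of the 6 members, without Upk2 and Upk3a. No other probe set of a member was present, so that alternative was not run. The replicate block changed no call of a member, and over all probe sets moved the calls in Alport vehicle against wild type from 3582 to 3333. Centring moved the median of all probe sets in that comparison from -0.03 to -0.17. Without both samples the calls in losartan against Alport vehicle went from 1755 to 423.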

Other observations

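The tetraspanin family, to which Upk1a and Upk1b belong, was measured for 25 other genes. In Alport vehicle against wild type 10 of the 25 rose, against 8.43% of all probe sets, with a median change of 0.31. Tspan8 rose by 1.55 ± 0.22 (adjusted p = 0.000171), Tspan2 by 1.52 ± 0.19 and Cd9 by 1.38 ± 0.21. The leukocyte tetraspanin Cd53 rose by 1.82 ± 0.28. With losartan Tspan8, Cd53, Cd9 and Tspan2 fell against Alport vehicle, by 1.09, 1.16, 0.80 and 0.66, where 7.9% of all probe sets were called. With metformin Cd9 and Tspan2 fell, by 0.85 and 0.80, and Tspan33 rose by 0.66, where 4.94% of all probe sets were called. Without the 2 samples that stood apart, 8 of the 25 rose in Alport vehicle against wild type, where 6.24% of all probe sets did. Against Alport vehicle, 0 of the 25 then rose and 0 fell with losartan, where 0.838% and 1.07% of all probe sets did. With metformin 1 then rose and 1 fell, where 1.6% and 1.06% of all probe sets did.

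The Ly6 family, to which Psca belongs, was measured for 22 other genes, of which 4 rose in Alport vehicle against wild type, against 8.43% of all probe sets, with a median change of 0.08. Plaur, the urokinase receptor, rose by 1.32 ± 0.29, Lynx1 by 1.28 ± 0.17, Cd59b, an inhibitor of complement lysis, by 0.94 ± 0.30 and Ly6c1 by 0.66 ± 0.18. Plaur and Lynx1 fell with losartan against Alport vehicle, by 1.46 and 0.87, where 7.9% of all probe sets were called. Without the 2 samples that stood apart, 2 of the 22 rose in Alport vehicle against wild type, where 6.24% of all probe sets did. In losartan against Alport vehicle 0 of the 22 then rose and 0 fell, where 0.838% and 1.07% of all probe sets did.

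Over all named genes, the widest gap of Alport vehicle sample 3 above both other samples of its group was that of Ucp1, the uncoupling protein of brown fat, which read 6.93 there against 4.13 and 2.56. Krt5 and Upk1a came next, followed by Igfbp2 at 12.44 against 10.15 and 9.41. Ucp1 was chosen after its values were seen.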
